A study of Mus musculus with 6 samples.

Results

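The genes described here drive the cell division cycle: 14 genes of DNA replication, 25 genes of mitosis, the 2 D-type cyclins Ccnd1 and Ccnd2, and 3 regulators of the entry into DNA synthesis, Ccne1, Ccne2 and E2f1. They were taken as a list of 44 symbols, and each was read from the probe set that named that gene alone and was brightest on average (mean log2 signal of the 6 arrays). Of the 44, 43 had such a probe set, among 18193 genes on the array that did. The annotation used here lists no probe set for Ccnb1, which was not analysed here.

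RNA came from the skin of 14-day-old mice on a mixed C57B6 and CD1 background, either wild type (WT) or labelled Ezh1/2 2KO, a double knockout of the paralogous genes for the catalytic subunits of Polycomb repressive complex 2. Cells had been purified by flow cytometry into basal epidermal cells, hair follicle matrix cells and outer root sheath (ORS) cells, and each of the 6 combinations of genotype and cell type was measured on 1 array. The 2KO basal epidermis sample is labelled as female only, and the other 5 as female and male. The sex-linked genes went against the first label: the Y-linked Eif2s3y read 1194 and Kdm5d 217 on that array, 2.06-fold and 2.61-fold higher than in WT basal epidermis, and Xist, which is expressed from the inactive X, read 7837 there against 9426 in WT. The labels do not give the promoter or the cells of a Cre, the deleted exons, the number of mice in a sample or whether samples share mice.

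Each round of division starts when growth signals raise D cyclins, which activate CDK4 and CDK6 to phosphorylate RB proteins and so release E2F factors. E2F factors turn on cyclin E and the replication genes: the MCM helicase, its loader Cdc6 and partners Cdc45 and Gins2, the sliding clamp Pcna, and the enzymes that make nucleotides. Later in the cycle FOXM1 and B-MYB, the product of Mybl2, act with the MuvB complex on the promoters of mitotic genes, which encode mitotic kinases, motors, kinetochore proteins and the machinery that degrades cyclins. In growing hair follicles the matrix at the base of the bulb is the site of rapid division, while basal epidermis and ORS hold progenitors that divide more slowly. Mki67, the gene of the Ki-67 antigen, is the usual marker of cycling cells. In such bulk samples fewer cycling cells and less RNA per cell cannot be told apart.

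The deposited signals are MAS5 intensities that had been scaled so that each array has a 2% trimmed mean of 500, and they are used as deposited. Median signals lay between 72.6 and 99.0. Signals below 83.2, the median over all arrays, were raised to that floor before a log2 ratio was taken. With 1 array per group no difference has a replicate check and none was tested. A gene is called higher or lower at 2-fold. The spread among different probe sets of the same member gives a technical scale. It does not stand for replicates, since the probe sets are read on the same arrays. Over 26 members with several probe sets the median SD of the 2KO/WT log2 ratio was 0.13 in basal epidermis, 0.21 for the matrix pair and 0.15 in ORS. The targeted gene Ezh2 was 5.93-fold, 2.07-fold and 5.69-fold lower on the 2KO arrays of basal epidermis, matrix and ORS. For Ezh1, the other targeted gene, the 2KO/WT log2 ratios were -2.27, -1.82 and -2.19 in the same order. Its 2KO signal was below the floor in basal epidermis and ORS, so the ratios there are bounds. The 2KO matrix array stood apart from the WT matrix array in its markers. The summed signal of 19 matrix, sheath and shaft genes was 74344 against 91757, all 19 being above the floor on both arrays, and that of 14 ORS genes was 75547 against 22180. For the same pair the sum of 11 basal epidermal genes was 54301 against 30599, of 12 fibroblast genes 44805 against 22802, of 14 immune genes 6619 against 1802 and of 11 skeletal muscle genes 4025 against 668. The 3'/5' ratios of the Gapdh and Actb control probe sets, a measure of RNA integrity, were also highest on the 2KO matrix array, at 0.999 and 1.87 against 0.718 to 0.831 and 1.39 to 1.66 on the other 5. The part of these values in the results on the matrix pair was not tested.

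In the wild type, nearly all cell cycle genes were highest in the matrix. Of the 43 members, 42 had a higher signal in WT matrix than in WT basal epidermis, with a median difference of 1.17 on the log2 scale (2.26-fold), and 41 were higher in WT matrix than in WT ORS, with a median of 1.26. At least 2-fold higher in matrix were 27 members against basal epidermis, where 11.3% of all measured genes reached that fold, and 28 against ORS, where 8.6% did. Between WT ORS and WT basal epidermis the members' median difference was 0.01, and 0 of 43 reached 2-fold. Of 11320 measured genes, 666 were at least 2-fold higher in WT ORS and 470 at least 2-fold lower.

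Mitotic genes separated the matrix from the other WT populations more widely than replication genes did. The median difference between WT matrix and WT basal epidermis was 1.47 for 24 mitotic genes, of which 20 were at least 2-fold higher, and 0.90 for 14 replication genes, of which 5 were. Against WT ORS the medians were 1.49 and 0.79, with 22 mitotic and 3 replication genes at least 2-fold higher. The median over all measured genes was 0.12 and 0.06 in the same comparisons.

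Mki67 read 3633 in WT basal epidermis, 9534 in WT matrix and 3834 in WT ORS, and 4833, 7807 and 3345 in the 2KO populations in the same order. Matrix was the highest of the 3 cell types in both genotypes, 2.62-fold above basal epidermis in WT and 1.62-fold in 2KO. Cdc25c, the phosphatase that activates CDK1 at mitotic entry, had the widest range of all mitotic members, 5.57-fold from lowest to highest array. It read 134, 748 and 163 in WT basal epidermis, matrix and ORS, and 358, 641 and 200 in 2KO. Bub1, a kinase of the spindle checkpoint, read 513, 2410 and 630 in WT and 1017, 1912 and 814 in 2KO, and Birc5, a subunit of the chromosomal passenger complex, read 1636, 5109 and 1275 in WT and 3793, 4031 and 1544 in 2KO. For these 3 genes the 2KO basal epidermis lay between the other 2KO populations and above every WT array but the matrix.

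The other mitotic members followed the same order in WT. Among the kinases and cyclins that start mitosis, Ccna2 read 1310, 4387 and 1294 in WT basal epidermis, matrix and ORS and 1804, 3062 and 1229 in 2KO, and Ccnb2, a B cyclin, read 1199, 3843 and 1185 in WT and 2072, 3076 and 1104 in 2KO. Cdk1, their kinase, read 1815, 4011 and 1474 in WT and 3420, 3359 and 1611 in 2KO. For all 3 genes the WT basal epidermis and ORS arrays lay close together. Only the basal epidermis array was higher in 2KO by more than the median probe set spread over members. Ccnb2 and Cdk1 have 1 probe set each, so they have no spread of their own. Plk1, a kinase of centrosomes and kinetochores, read 539, 1408 and 445 in WT and 690, 1097 and 382 in 2KO. Aurka read 364, 1415 and 385 in WT and 496, 868 and 364 in 2KO, and Aurkb, the kinase of the passenger complex that holds Birc5, read 549, 1601 and 551 in WT and 899, 1174 and 480 in 2KO. These 3 kinase genes stood 2.61-fold, 3.89-fold and 2.92-fold higher in WT matrix than in WT basal epidermis.

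Genes of the kinetochore and spindle gave a like picture. Cenpa, the histone of the centromere, read 1741, 4589 and 1613 in WT basal epidermis, matrix and ORS and 3154, 4458 and 1600 in 2KO, so that its 2KO basal epidermis was 1.81-fold higher than WT while matrix and ORS were within 1.03-fold. Bub1b, the partner of Bub1 in the checkpoint, read 543, 1573 and 594 in WT and 837, 1334 and 611 in 2KO. Kif11, the motor that pushes spindle poles apart, read 700, 1888 and 679 in WT and 1021, 1439 and 757 in 2KO. Kif20a, a motor of cytokinesis, read 403, 1326 and 433 in WT and 611, 1097 and 421 in 2KO. Tpx2, Cenpf, Nusap1 and Prc1, which bind spindle microtubules or kinetochores, stood 2.90-fold, 2.74-fold, 2.22-fold and, just short of the 2-fold mark, 2.00-fold higher in WT matrix than in WT basal epidermis and 1.35-fold, 1.33-fold, 1.14-fold and 1.31-fold higher in 2KO than in WT basal epidermis. Nusap1 thus had one of the smallest differences between the genotypes in basal epidermis beside a clear difference between the WT populations.

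Among the replication genes the span ran from Cdc6 to Mcm4. Cdc6, which loads the helicase on origins, read 95, 432 and 128 in WT basal epidermis, matrix and ORS, and 162, 275 and 162 in 2KO, a range of 4.52-fold. Uhrf1, which carries DNA methylation through replication, read 1809, 4224 and 1766 in WT and 2441, 4774 and 2419 in 2KO, and Rrm1, the large subunit of ribonucleotide reductase, read 1908, 4305 and 1892 in WT and 3323, 3682 and 2409 in 2KO. Mcm4, a helicase subunit, differed least, at 3793, 4142 and 3829 in WT and 4690, 5029 and 4307 in 2KO, a range of 1.33-fold. Pcna, the clamp that holds DNA polymerases, was nearly as even, at 12973, 15544 and 11339 in WT and 14884, 14292 and 13020 in 2KO. Helicase subunits thus covered a wide span among themselves by the probe sets used. WT matrix stood above WT basal epidermis by 0.94 for Mcm7, 0.85 for Mcm5 and 0.79 for Mcm3 on the log2 scale. For Mcm2, Mcm6 and Mcm4 the values were 0.73, 0.36 and 0.13. Their order depends on the probe set. The other for Mcm2 read 719 in WT basal epidermis and 1766 in WT matrix, and those for Mcm3 ran from 120 and 140 to 439 and 927. Gins2, a subunit of the GINS complex that completes the helicase, was the member on the other side, with 807, 599 and 797 in WT and 812, 653 and 820 in 2KO, lowest in the matrix of both genotypes, and its partner Cdc45 read 268, 551 and 334 in WT and 281, 512 and 273 in 2KO.

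Over all 6 arrays, 33 of the 43 members were highest on the WT matrix array, 22 of 24 mitotic and 9 of 14 replication genes among them. The 2KO matrix array held the maximum of 7 members, Ccnd1 in all 3 of its probe sets and Ccnd2 in 2 of 7 among them, 2KO basal epidermis that of 2 and 2KO ORS that of 1. The lowest array was WT basal epidermis for 15 members, WT ORS for 13 and 2KO ORS for 13, and 2KO basal epidermis for 0. Over the other choices of floor, scaling and probe set, between 30 and 40 members were highest on the WT matrix array. Of the 67 probe sets of members that had several, 48 were highest there.

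**Figure D1:**
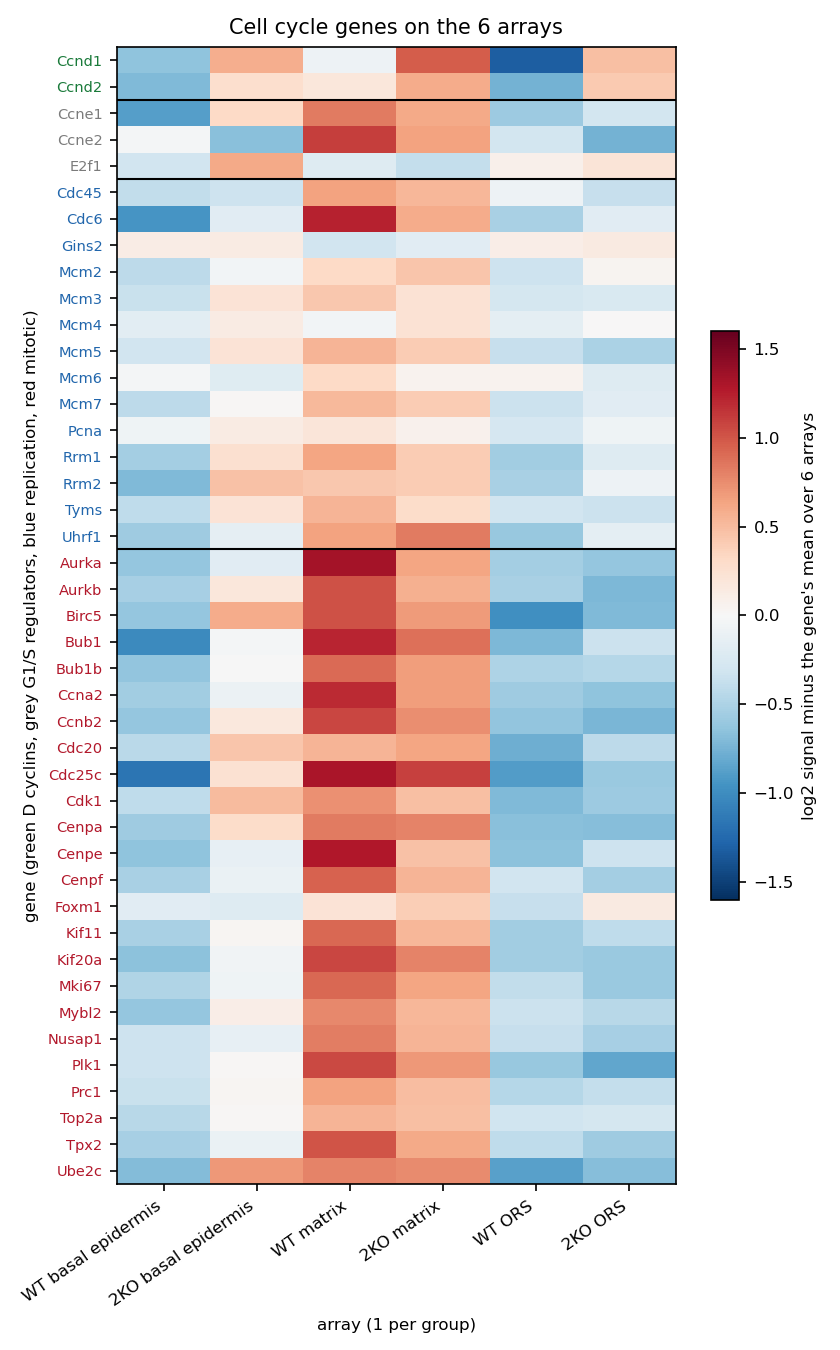
Log2 signal of each of the 43 measured members (rows, grouped by role) on the 6 arrays (columns), with each row centred on its own mean over the arrays. The WT matrix column is the highest in 33 rows, and the D cyclin rows are highest on the 2KO matrix array by the probe sets shown, which for Ccnd2 holds in 2 of 7 probe sets.

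The following promoter stretches are those of the pair in each role, mitotic and replication, with the highest mean signal among members that hold a searched motif. Picked in this way they are examples and do not show how the roles differ, which is counted further on over all windows found. RefSeq windows of the GRCm38.p6 assembly, 250 bases before to 50 after the annotated start, were found for 33 of the 44 members, and no window was read for Mcm4, Gins2, Ccne2, Ccnd1, Ccnd2, Ccna2, Cdc25c, Aurkb, Kif20a, Tpx2 and Foxm1. Each line gives 180 bases, 150 before and 30 after the start, 5′ to 3′ on the strand of the gene, and capitals mark matches to the cell cycle genes homology region (CHR, TTTGAA), the CCAAT box (CCAAT) and E2F motifs on either strand, spelled as TTCCCGC with the variants TTGGCGC in 1 form and TTCGCGC in another, and the fourth form TTGCCGC. Cdc20, the activator of the anaphase-promoting complex, lies at chr4:118437314-118437493, Top2a, the topoisomerase that untangles sister chromatids, at chr11:99024160-99024339, Pcna at chr2:132253151-132253330 and Mcm7 at chr5:138171854-138172033, all on the minus strand.
Cdc20: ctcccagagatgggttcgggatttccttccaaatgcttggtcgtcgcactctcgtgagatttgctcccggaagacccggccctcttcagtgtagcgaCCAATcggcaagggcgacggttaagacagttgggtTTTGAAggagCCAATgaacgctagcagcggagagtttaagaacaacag
Top2a: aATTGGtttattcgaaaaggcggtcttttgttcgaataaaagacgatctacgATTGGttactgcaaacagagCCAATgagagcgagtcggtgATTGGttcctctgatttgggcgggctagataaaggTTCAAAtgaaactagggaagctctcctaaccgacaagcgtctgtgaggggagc
Pcna: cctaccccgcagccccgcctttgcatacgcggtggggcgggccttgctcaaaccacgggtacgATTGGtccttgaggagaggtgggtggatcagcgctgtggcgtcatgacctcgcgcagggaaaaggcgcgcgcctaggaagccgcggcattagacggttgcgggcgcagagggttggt
Mcm7: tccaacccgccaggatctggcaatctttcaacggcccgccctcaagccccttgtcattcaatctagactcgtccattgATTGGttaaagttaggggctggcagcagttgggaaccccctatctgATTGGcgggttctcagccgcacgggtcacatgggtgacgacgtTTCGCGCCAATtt
In Cdc20 the CHR starts at position -18 and CCAAT boxes at -53 and -8 from the start. In Top2a a CHR starts at -23 with CCAAT boxes at -149, -98, -78 and -58 in the printed stretch. Pcna holds a CCAAT box at -87, and Mcm7 holds CCAAT boxes at -72, -26 and 24 with E2F matches at 18 and 21, where the E2F and CCAAT letters overlap.

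Counted over the 300-base windows, the CHR was in 13 of 19 mitotic promoters (68.4%) and 2 of 12 replication promoters (16.7%), against 13.3% of 14452 genes on the array with a window. An E2F motif was in 3 of 19 mitotic (15.8%) and 8 of 12 replication promoters (66.7%), against 14.2%. The CCAAT box was in both groups, in 16 of 19 (84.2%) and 10 of 12 (83.3%), against 38.2%. Mitotic and replication genes outside the 44, from lists described further on, had the CHR in 40 of 75 (53.3%) and an E2F motif in 24 of 42 promoters (57.1%). Within the mitotic group the median difference between WT matrix and WT basal epidermis was 1.40 for the 13 mitotic members with a CHR and 1.64 for the 5 measured ones with a window but no CHR. A match is a stretch of letters and not a bound site.

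In basal epidermis, cell cycle genes had higher signals in 2KO than in WT. Of 43 members 40 were above 0 on the log2 scale, and the medians were 0.57 for mitotic and 0.44 for replication genes, against 0.04 for all 11527 measured genes. At least 2-fold higher were 6 members, where 6.59% of all measured genes were, and 0 were at least 2-fold lower, where 4.09% were. The members' ratios were thus spread widely below 2-fold rather than carried by a few genes, from -0.64 to 1.41.

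The 6 members past 2-fold came from every role. Cdc25c, at 134 in WT and 358 in 2KO basal epidermis, was 2.66-fold higher, but its other probe set gave 0.45 on the log2 scale and the mean over both 0.93. Ube2c, the E2 enzyme that works with the anaphase-promoting complex, read 3108 and 8111 (2.61-fold), and Birc5 was 2.32-fold higher. Rrm2, the small subunit of ribonucleotide reductase, had signals of 3480 and 7838 there (2.25-fold). Its signals in WT matrix, 2KO matrix, WT ORS and 2KO ORS were 7678, 7542, 3952 and 5349, so 2KO basal epidermis was next to the WT matrix, which was the highest array in its other 2 probe sets. Ccne1, a cyclin E that drives the start of DNA synthesis, read 218 and 501 (2.29-fold), with 717 and 614 in matrix and 269 and 330 in ORS, and with the floor at the 75th percentile of signals its ratio was 0.11. The sixth gene was Ccnd1, described with Ccnd2 further on.

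Just below the 2-fold mark were Bub1 (1.98-fold), Ccnd2 (1.97-fold), E2f1 (1.89-fold) and Cdk1, the kinase of mitosis (1.88-fold). E2f1, the factor that turns on replication genes, read 267, 285 and 348 in WT basal epidermis, matrix and ORS, and 503, 254 and 380 in 2KO. Its highest array was 2KO basal epidermis, so by this probe set it did not share the matrix maximum of its usual target genes. The other probe set above the floor read 220, 389 and 329 in WT and 397, 286 and 310 in 2KO. By that one the WT matrix was the highest WT array and lay close to 2KO basal epidermis. Mki67 was 1.33-fold and Pcna 1.15-fold higher in 2KO basal epidermis. Tyms, thymidylate synthase, was below the floor in WT basal epidermis, with 79 against 128 in 2KO, and so was at least 1.54-fold higher. The summed signal of the matrix, sheath and shaft list was 3497 in 2KO and 11452 in WT basal epidermis, with 10 of 18 measured genes at least 2-fold lower and 2 higher, and 9 of 19 were above the floor in 2KO against 18 in WT. These markers moved opposite to the members, and their part in the members' ratios was not tested. Y-linked signals were higher on the 2KO array of every pair (Eif2s3y 2.06-fold, 3.07-fold and 3.12-fold in basal epidermis, matrix and ORS), and the part of the sex mix in the ratios was not tested.

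In matrix the same genes were on the other side of 0. Of 43 members 8 were above 0, with medians of -0.28 for mitotic and -0.12 for replication genes against 0.03 for all measured genes, and the medians relative to all genes stayed below 0 under every alternative run (-0.36 to -0.26 and -0.20 to -0.05). One member, Ccnd1, was at least 2-fold higher, where 9.03% of all measured genes were, and 0 were at least 2-fold lower, where 1.62% were. Cenpe, a kinetochore motor, read 1822 in WT and 1040 in 2KO matrix (-0.81), Aurka, the kinase of spindle poles, 1415 and 868 (-0.70), and Cdc6 432 and 275 (-0.65). By the probe sets used these were the 3 lowest ratios of the 43, and the other mitotic genes lay between -0.52 for Ccna2, cyclin A2, and 0.17 for Foxm1. The order depends on the probe set: another gave -0.19 for Cenpe, -0.95 for Ccna2 and -1.18 for Rrm2. Mki67 was 1.22-fold lower, at 7807 against 9534, and Pcna 1.09-fold lower. Several of these differences are of the size of the spread between probe sets, 0.21, and probe sets of the same gene lay far apart in this pair: from -1.26 to 0.45 for Mcm3, from -1.61 to -0.40 for Cenpf and from -1.34 to -0.23 for Rrm1. In the same pair the ORS, fibroblast, immune and skeletal muscle lists were at least 2-fold higher in 9 of 14, 10 of 11, 7 of 11 and 7 of 9 measured genes, and their part in the lower values of the members was not tested.

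In ORS the members were spread around 0, with 26 of 43 above it. The median was 0.02 for mitotic genes, which turned to -0.24 when arrays were scaled to a common median and -0.14 when they were scaled to the hybridisation controls. For replication genes it was 0.16, and -0.088 with a common median. Relative to all measured genes the medians were 0.00 and 0.15. Only the D cyclins were at least 2-fold higher among the 43, where 8.16% of all measured genes were, and 0 members were lower, where 4.75% were. Mki67 read 3834 in WT and 3345 in 2KO ORS (1.15-fold lower), and Top2a read 4107 and 4233 (1.03-fold higher). Uhrf1 (1.37-fold), Rrm2 (1.35-fold) and Mcm2 (1.30-fold) led the replication genes. The matrix, sheath and shaft list was lower on this 2KO array as well, with a sum of 5027 against 10283, 10 of 18 measured genes at least 2-fold lower and 2 higher, and its part in the members' ratios was not tested.

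**Figure D2:**
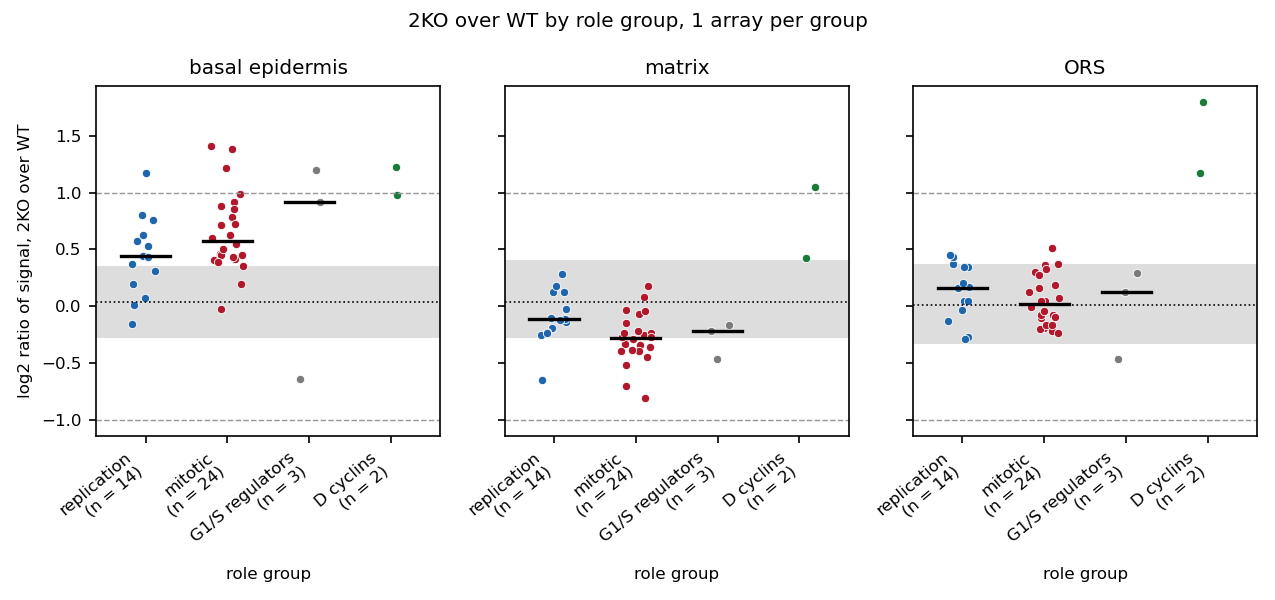
Log2 ratio of 2KO over WT for each member (points, 1 per gene) by role for each of the cell types; bars are the median of each role, the dotted line and grey band the median and quartiles of all measured genes, and dashed lines 2-fold. Replication and mitotic points lie mostly above 0 in basal epidermis (medians 0.44 and 0.57) and mostly below it in matrix (-0.12 and -0.28). In ORS they lie around 0 (0.16 and 0.02, both below 0 when arrays are scaled to a common median). Ccnd1 lies past 2-fold in each cell type. Ccnd2 lies at 0.98, 0.42 and 1.17 in basal epidermis, matrix and ORS, and in matrix 5 of its 7 probe sets are below 0.

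In ORS both D cyclins, and in matrix Ccnd1, were higher in 2KO without a like difference in the medians of the replication and mitotic genes. In basal epidermis both D cyclins were higher in 2KO, as most members were. Ccnd1, encoding cyclin D1, read 3633, 5343 and 2278 in WT basal epidermis, matrix and ORS, and 8474, 11080 and 7932 in 2KO. By the probe set used, every 2KO array was above every WT array, as in 2 of its 3 probe sets, and the ratios were 2.33-fold in basal epidermis, 2.07-fold for matrix and 3.48-fold in ORS. In matrix its log2 ratio of 1.05 came to 0.77 when arrays were scaled to a common median and to 0.42 with the hybridisation controls, both short of 2-fold. All 3 of its probe sets were higher on each 2KO array, by 0.82 to 1.77 in basal epidermis, 0.36 to 1.36 in matrix and 0.99 to 1.98 in ORS on the log2 scale. Of all measured genes 4.71%, 8.29% and 2.45% had a ratio as high as that of Ccnd1 in the 3 pairs.

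Ccnd2, encoding cyclin D2, read 6634, 12190 and 6368 in WT basal epidermis, matrix and ORS, and 13054, 16350 and 14375 in 2KO. By this probe set, but by none of the other 6, every 2KO array was above every WT array, with ratios of 1.97-fold in basal epidermis, 1.34-fold for matrix and 2.26-fold in ORS, the last short of 2-fold (0.92 on the log2 scale) with a common median. In basal epidermis and ORS all 7 of its probe sets were higher in 2KO, by 0.42 to 0.98 and 0.99 to 1.49. In matrix 2 were above and 5 below 0, between -0.22 and 0.42, and the ratio of the probe set used turned from 0.42 to -0.21 when arrays were scaled to the hybridisation controls. The difference of Ccnd2 in matrix was within the spread of its probe sets. Of all measured genes 6.86%, 23.8% and 6.04% had a ratio as high as that of Ccnd2 in basal epidermis, matrix and ORS.

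Each D cyclin was set against the mitotic median of the same pair, which removes any factor common to an array. By the probe sets used, Ccnd1 stood higher by 0.65, 1.33 and 1.78 (basal epidermis, matrix, ORS), and Ccnd2 by 0.41, 0.70 and 1.16. The matrix value of Ccnd2 rests on its highest probe set in that pair. Ccnd1 had the highest ratio of the 43 members in matrix and in ORS and the third highest in basal epidermis. In WT, by contrast, the D cyclins by the probe sets used stood below the mitotic median in matrix over the other populations. Ccnd1 was 1.47-fold and Ccnd2 1.84-fold higher in matrix than in basal epidermis, while the mitotic median was 2.77-fold. Against WT ORS they were 2.35-fold and 1.91-fold higher, beside a mitotic median of 2.81-fold. The size for Ccnd2 depends on the probe set. Another read 5935 in WT basal epidermis and 13647 in WT matrix, a wider difference, and a dimmer one 137 and 250. On the same arrays Cdkn2a, whose products include the INK4 inhibitor of CDK4 and CDK6, read 45, 56 and 26 in WT basal epidermis, matrix and ORS, all below the floor, and 2385, 1256 and 2840 in 2KO. Cdkn2b, its neighbour with a similar product, read 304, 1163 and 227 in WT and 1562, 2026 and 1950 in 2KO.

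**Figure D3:**
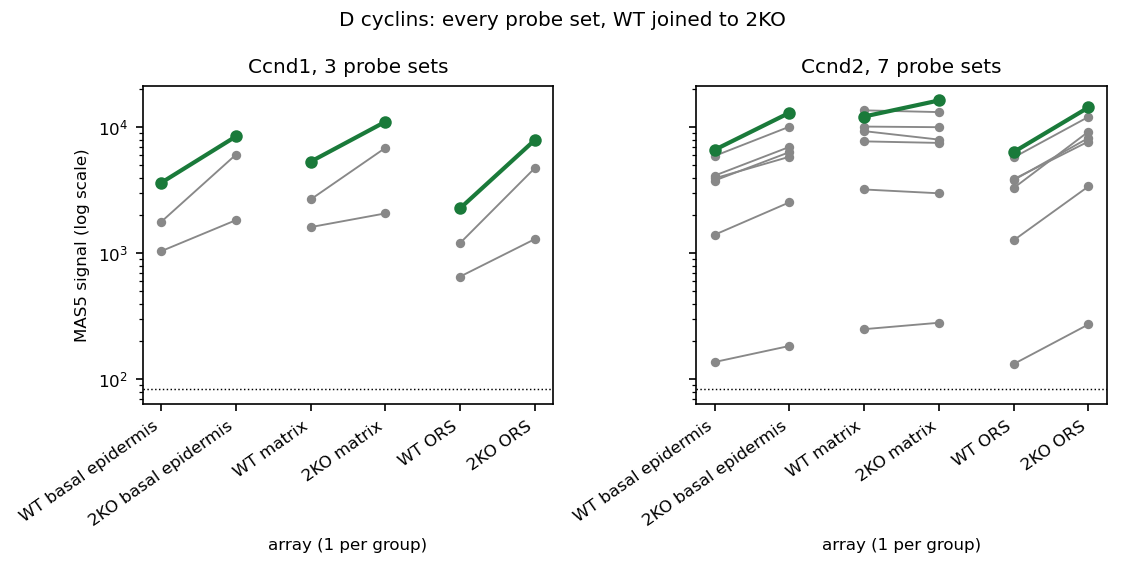
MAS5 signal (log axis) of Ccnd1 and Ccnd2 on the 6 arrays, with a line joining WT to 2KO for each probe set, the probe set used for the gene in green and the floor dotted. All 3 probe sets of Ccnd1 are higher in 2KO in each cell type, and those of Ccnd2 are higher in basal epidermis and ORS but divide 2 above and 5 below 0 in matrix.

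The gap between matrix and basal epidermis was smaller in 2KO. The median of the 43 members stood 2.26-fold higher in matrix than in basal epidermis in WT and 1.38-fold in 2KO. The gap was smaller in 2KO for 40 of the 43, and for 50.1% of 10955 genes measured on all 4 arrays. For mitotic genes it went from 2.77-fold to 1.52-fold, smaller in 23 of 24, and for replication genes from 1.86-fold to 1.12-fold, smaller in 13 of 14. Over the other settings the count of members with a smaller gap was between 37 and 43. At least 2-fold higher in 2KO matrix than in 2KO basal epidermis was 1 member, Ccne2, where 6.9% of all measured genes were. Ube2c read 8111 in 2KO basal epidermis and 8492 in 2KO matrix, Cdk1 3420 and 3359, Birc5 3793 and 4031 and Rrm2 7838 and 7542, pairs that were 2.21-fold to 3.12-fold apart in WT.

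The matrix stayed apart from ORS in 2KO. The mitotic median was 2.81-fold higher in matrix than in ORS in WT and 2.30-fold in 2KO, and 19 members were at least 2-fold higher in 2KO matrix than in 2KO ORS, where 5.2% of all measured genes were. In 2KO, basal epidermis and ORS also parted, with a mitotic median of -0.53 and a replication median of -0.16 for ORS over basal epidermis, against -0.02 and 0.08 in WT. Ube2c, Birc5 and Cdk1 were at least 2-fold lower in 2KO ORS than in 2KO basal epidermis (2.60-fold, 2.46-fold and 2.12-fold), where 4.32% of all measured genes were. These comparisons share arrays with those between the genotypes, so they are other views of the same values.

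**Figure D4:**
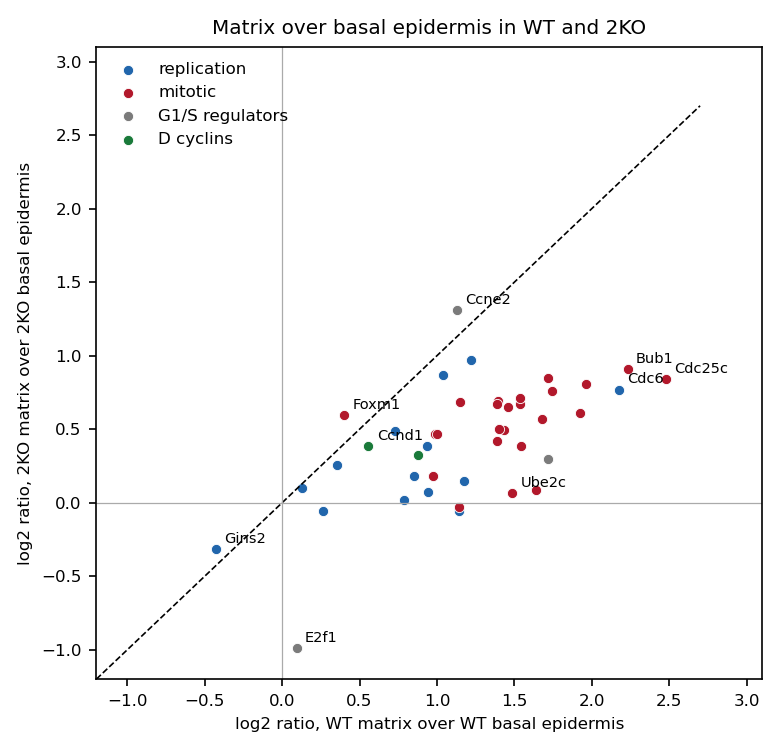
Log2 difference between matrix and basal epidermis in 2KO (vertical axis) against the same difference in WT (horizontal axis) for each member, coloured by role, with a dashed line of equal differences. Of the 43 points 40 lie below the line, where the gap is smaller in 2KO.

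A few members departed from their role. Ccne2, the other cyclin E gene, read 376, 822 and 313 in WT basal epidermis, matrix and ORS, and 240, 596 and 227 in 2KO, lower in all 3 pairs (-0.64, -0.46 and -0.47) where Ccne1 was 1.20, -0.22 and 0.29. Mcm6 was also lower in all 3, at 3080, 3940 and 3297 in WT and 2761, 3298 and 2736 in 2KO. By the probe sets used the other subunits of the same helicase were higher in 2KO basal epidermis by 0.31 to 0.57. The other Mcm6 probe set above the floor gave -0.02 there, next to 0, and for Mcm3 2 of 5 probe sets were below 0, the lowest at -0.27. Ccne2 has 1 probe set. Ccne2 and Mcm6 were the only members on the lower side in every pair, and both kept it under each scaling. Foxm1, the factor of the mitotic program, had the narrowest range of the mitotic genes, with 267, 352 and 236 in WT and 263, 397 and 336 in 2KO. Its 2KO/WT ratios were -0.02, 0.17 and 0.51, the matrix ratio turning to -0.46 with scaling to the hybridisation controls. This rests on the probe set used: the other 2 above the floor gave 0.39 and 0.43 in basal epidermis, -0.08 and -0.08 in matrix and 0.25 and -0.57 in ORS, and their ranges were 1.84-fold and 3.31-fold. Mybl2 read 172, 448 and 208 in WT and 284, 381 and 194 in 2KO, highest in the WT matrix like most mitotic genes. By the signs of their 3 ratios, 18 members were higher in basal epidermis and ORS and lower in matrix, 15 were higher in basal epidermis alone, and 7 were higher in all 3. These 7 were Mcm2, Mcm4, Gins2, Uhrf1, Cdc20, Ccnd1 and Ccnd2. After scaling to the hybridisation controls all but Ccnd1 were below 0 in matrix. These signs are those of the probe set used, and among the 7 only Ccnd1 was higher in all 3 pairs by each of its probe sets. In matrix the lowest probe set gave -0.15 for Mcm2, -0.14 for Mcm4, -0.18 for Gins2, -0.23 for Uhrf1 and -0.59 for Cdc20. For Ccnd2, 5 of 7 probe sets were below 0 there.

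Genes of the same processes outside the 44 were read from broader lists. These were set by process, but with earlier results of these data known, so they are not an independent check. Of 49 other replication genes, 43 were above 0 in 2KO over WT basal epidermis (median 0.32), 7 in matrix (-0.27) and 25 in ORS (0.01). At least 2-fold higher in basal epidermis were 3 (6.12%, beside 6.59% of all measured genes), the thymidine kinase gene Tk1 (970 against 2231, 2.30-fold), the exonuclease gene Exo1 (2.09-fold) and the dUTPase gene Dut (2.08-fold). In ORS, Cdca7 was 2.21-fold lower, and in matrix 0 reached 2-fold in either direction.

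Of other mitotic genes, 76 of 82 measured were above 0 in basal epidermis (median 0.53), 23 of 83 in matrix (-0.12) and 58 of 82 in ORS (0.10). In basal epidermis 9 were at least 2-fold higher (11.0%, beside the same 6.59%), led by the citron kinase gene Cit (161 against 628, 3.91-fold), the lamin gene Lmnb1 (2.52-fold), the kinesin gene Kifc1 (2.35-fold) and the cohesin protector Sgo2a (2.29-fold), and Cenpl was 2.12-fold lower. In matrix and ORS 0 of them reached 2-fold. In the wild type 53 of 82 other mitotic (64.6%) and 16 of 49 other replication genes (32.7%) were at least 2-fold higher in matrix than in basal epidermis, beside 11.3% of all measured genes, the same order of the processes as among the members.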

How the data were processed

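RNA had been labelled with biotin in an in vitro transcription from the 3' end, with a step of 16 hours, per the labels' protocols. The authors deposited 1 intensity per probe set and array on a linear scale, made with MAS5 per the submitters' processing notes; its version is not given in the sources used here, and background subtraction is named in the series text. Every array's 2% trimmed mean is 500, a scaling that hides any shift of most genes at once, so medians are also given relative to all measured genes.

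Of 45101 probe sets, 34958 name 1 gene, 932 several and 9160 are not listed in the platform annotation, and 64 are controls; those naming 1 gene were used. The floor was the median of all probe sets that are not controls (83.2). A gene below it on both arrays of a comparison counted as not measured, and folds that use the floor on 1 array are lower bounds. No test was made: each group had 1 array, and a fit of genotype over the cell types would treat those as replicates; precision is limited by the number of arrays.

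Members and lists were chosen with earlier results of these data known. Described in full were Mki67, Pcna, Ccnd1, Ccnd2, members at least 2-fold different between genotypes, and the 3 members of widest and the 1 of narrowest range in each role; of other lists, up to 4 genes per cell type past 2-fold were named. Other members and genes were named after their values were seen. Promoters were read from RefSeq (GRCm38.p6), which gives no coordinates to the arrays. Alternatives changed the floor (25th or 75th percentile, or none), the scaling (common median, hybridisation controls, quantile), the probe set (mean of all, or without those marked as matching several transcripts) and the fold (1.5). Calls were tested on simulated data. Python 3.11.15, numpy 2.4.6, pandas 2.3.3 and matplotlib 3.10.9 were used.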

Additional observations from a re-analysis of the deposited data

Results flagged for a closer look

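The 2KO/WT difference of both roles lay on opposite sides of 0 in matrix and in the other cell types, relative to all measured genes. The mitotic median was 0.847 higher in basal epidermis than in matrix on the log2 scale, and the replication median 0.549 higher. Matrix minus ORS gave -0.317 for mitotic and -0.301 for replication genes. The mitotic median relative to all genes in ORS, 0.00, is itself next to 0, and it lay between -0.10 and 0.06 over the alternatives. With 1 array per group these differences were not tested, and the marker and RNA integrity values of the 2KO matrix array given above apply to each of them.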

How the results depend on the processing

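Medians relative to all measured genes kept their value within the spread between probe sets in 140 of 144 alternatives. The exceptions were the replication medians of WT matrix over WT basal epidermis (0.64) and over WT ORS (0.56) with the floor at the 75th percentile, and, with the mean of all probe sets, the mitotic medians of WT matrix over WT ORS (1.29) and of 2KO matrix over 2KO basal epidermis (0.36). Relative 2KO/WT medians ranged from 0.49 to 0.59 (mitotic) and 0.31 to 0.42 (replication) in basal epidermis, and from 0.11 to 0.19 for replication genes in ORS. Calling at 1.5-fold, a laxer limit by construction, gave 20 members higher and 1 lower in basal epidermis and 3 lower in matrix. Shares of all measured genes are not given for this limit or for the other settings below. The counts of members are thus not set against a background there. Scaling to a common median moved the median of all genes to -0.07, -0.24 and -0.23 in basal epidermis, matrix and ORS, and left 0 members higher and 1 lower in matrix (Cenpe), 1 higher in ORS, Ccnd1 at 0.77 in matrix and 1.55 in ORS, Ccnd2 at 0.14 and 0.92, and the unadjusted replication median in ORS reversed at -0.088. Scaling to the hybridisation controls moved it to -0.06, -0.58 and -0.14, and left 0 members higher and 9 lower in matrix (Cdc6, Ccne2, Ccna2, Aurka, Aurkb, Kif11, Cenpe, Cenpf and Tpx2), Ccnd1 at 0.42 in matrix and 1.64 in ORS, and Ccnd2 at -0.21 and 1.02. With the mean of all probe sets 0 members were higher and 1 lower in matrix (Rrm1), Ccnd2 was 0.73 in basal epidermis and 0.0238 in matrix, and Ccnd1 was 1.59 in ORS. The shifts by scaling are the array factor itself; the cause of the differences between probe sets was not tested. Genotypes were not tested in pairs over the cell types, since a population is not a replicate of another and the labels number no replicates.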

Other observations

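Regulators upstream of the members were read from a list of 34 CDK, RB and E2F genes. Its median 2KO/WT log2 ratio was 0.14 in basal epidermis (31 measured), -0.15 in matrix (33) and 0.06 in ORS (32). E2f8, an atypical E2F that represses E2F targets, was 2.25-fold higher in 2KO basal epidermis (1224 against 544), with 1388 and 1053 in matrix and 442 and 574 in ORS. Cables1, a CDK-binding adaptor, was 2.11-fold lower in 2KO basal epidermis. In ORS, Mybl1, a MYB factor best known from the germline, read 55 in WT, below the floor, and 207 in 2KO (at least 2.49-fold higher), and Mycn, a MYC family factor, read 206 and 421 (2.04-fold higher). In matrix 0 of 33 reached 2-fold.

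Other genes of the list were looked at after their values were seen. Cdk4, the kinase partner of D cyclins, read 2883, 5510 and 3262 in WT basal epidermis, matrix and ORS and 4662, 5364 and 4787 in 2KO, with 2KO over WT at 1.62-fold in basal epidermis and at 1.47-fold in ORS. Rbl2, the RB family member p130 of resting cells, read 660, 483 and 596 in WT and 337, 396 and 334 in 2KO, lower in each pair. Myc read 6694 and 6027 in WT basal epidermis and ORS but 1401 in WT matrix, while Mycn read 198, 206 and 1850 and E2f2 168, 143 and 1631 on the same arrays, so the WT matrix stood low for Myc and high for Mycn and E2f2. In 2KO, Myc read 3983, 1772 and 3387 in basal epidermis, matrix and ORS, Mycn 159, 1035 and 421, and E2f2 168, 1090 and 98. Cdkn1b, the inhibitor p27, read 1566, 3002 and 2518 in WT and 702, 2292 and 1224 in 2KO, highest in the matrix of its genotype in both.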
